A study of Mus musculus with 6 samples.

Results

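The transcripts described here are the 49 nuclear genes listed for respiratory complex I: 35 genes for subunits of the enzyme and 14 genes for factors that assemble it. They were chosen by name, not by any measured value. All 49 were among the 23154 gene IDs of the count tables, and all 49 had enough reads to be tested, out of 12509 genes tested. Expression was measured by stranded poly(A) RNA-seq in C2C12, an established line of mouse myoblasts that can fuse into myotubes. One group carried the doxycycline-inducible construct pINDUCER20b-HA-NUR77, for the HA-tagged orphan nuclear receptor NUR77, and the control group carried pINDUCER20b-GFP. Both groups received doxycycline at 1 µg/mL for 18 hours, beginning 24 hours after seeding, so the controls share the drug. Each group had 3 libraries, and each library came from a separate dish. Only 1 stable line is labelled for each construct, so a difference between lines and an effect of the construct cannot be told apart, and p-values measure only the spread between dishes.

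Complex I is the largest enzyme of the respiratory chain. It takes electrons from NADH in the mitochondrial matrix, passes them along a flavin and a series of iron-sulfur clusters to ubiquinone, and uses the energy released to pump protons across the inner membrane. Its matrix arm carries the redox chemistry and its membrane arm the pumps. The pumping subunits are encoded by mitochondrial DNA, the other subunits by nuclear genes, and dedicated factors bring the modules together. Muscle cells rely on this enzyme for oxidative ATP production, and complex I rises in abundance as myoblasts differentiate. The title of the series pairs NUR77 with YY1, a zinc finger transcription factor, and with mitochondria in macrophages. The comparison here asks whether the complex I transcripts differ when the NUR77 construct is induced in myoblasts.

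Library totals ran from 13906096 to 22821446 counts. Levels are given as CPM (counts scaled to library size). The mouse gene for NUR77, Nr4a1, stood at 22.5 ± 3.03 CPM in the HA-NUR77 libraries and 20.4 ± 7.43 CPM in the GFP libraries (SD, n = 3, edgeR adjusted p = 0.698). The sources used here do not give the species of the insert, so Nr4a1 does not check the labels, and groups are named as labelled. Yy1 stood at 57.8 ± 0.833 and 55.1 ± 3.28 CPM (SD, n = 3; edgeR adjusted p = 0.488). Myoblast identity was checked on 7 markers. The most abundant, Des, which encodes desmin, stood at 3298 ± 381 and 2500 ± 429 CPM (SD, n = 3), and Chrdl2 had no read in any library. In the HA-NUR77 libraries, 2 of the 6 myoblast markers tested were higher and 0 lower, beside 12.4% and 13.2% of all genes tested. The log2 fold change was above 0 for 4 of the 6 and below 0 for Myf5 (−0.23) and Pax7 (−0.28). Pax7 was low, at 4.16 ± 0.724 and 5.09 ± 1.21 CPM (SD, n = 3). With a replicate block 4 were higher, Des among them, and 1 lower (Myf5), beside 23.5% and 24.6% of all genes tested. Of 15 markers of differentiated muscle, 4 were higher (Myh3, Myh8, Tnnc2 and Mb) and 0 lower. The log2 fold change was above 0 for 12 of the 15 and below 0 for Mef2c, Mymx and Myog. The summed level of the 15 was 25860 to 30710 CPM in HA-NUR77 and 16210 to 23630 CPM in GFP. The most abundant of them, Acta1, the skeletal muscle actin, stood at 5383 ± 487 and 3818 ± 801 CPM (SD, n = 3). Acta1 did not pass the threshold (edgeR adjusted p = 0.0583) and passed with a replicate block (0.000179). Of 5 fibroblast markers, 3 were tested and 2 were lower, including Col3a1 at 5167 ± 516 against 6978 ± 828 CPM (SD, n = 3), and Thy1 had no read. Summed macrophage markers reached at most 3.46 CPM, with 1 of the 2 tested higher (Csf1r, 1.35 ± 0.470 against 0.426 ± 0.287 CPM; SD, n = 3) and Ptprc at 1 read in each library. Among adipocyte markers Adipoq, Plin1 and Lep had no read and Fabp4 at most 3 reads in a library. With a replicate block, 12 of the 15 differentiated muscle markers were higher and 1 lower (Mef2c), beside the same 23.5% and 24.6% of all genes. In bulk RNA, fewer cells of a type and less RNA per cell cannot be told apart.

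Most complex I genes stood at slightly higher levels in the HA-NUR77 libraries, and 21 of the 23 that passed the test were subunits. Of the 49 genes, 23 rose, 0 fell and 26 did not pass the test (edgeR's quasi-likelihood test, adjusted p under 0.05), beside 12.4% of all genes tested called higher and 13.2% called lower. The median change was 1.24-fold (log2 0.30), where the median log2 change over all genes tested was 0.01. Among the 35 subunits 21 rose, with a median of 1.26-fold. Among the 14 assembly factors 2 rose, with a median of 1.11-fold. Whether subunits and assembly factors differ from each other was not tested. The log2 fold change was above 0 for 48 of the 49 genes, against 50.9% of all genes, and the exception was the assembly factor Ndufaf3. In 38 of the 49 genes every HA-NUR77 library lay above every GFP library, a separation seen for 23.0% of all genes tested, and in none did every HA-NUR77 library lie below. An unadjusted edgeR p under 0.05 was found for 39 of the 49. The share of all genes tested at that threshold was not counted, so this count has no background beside it.

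**Figure D1:**
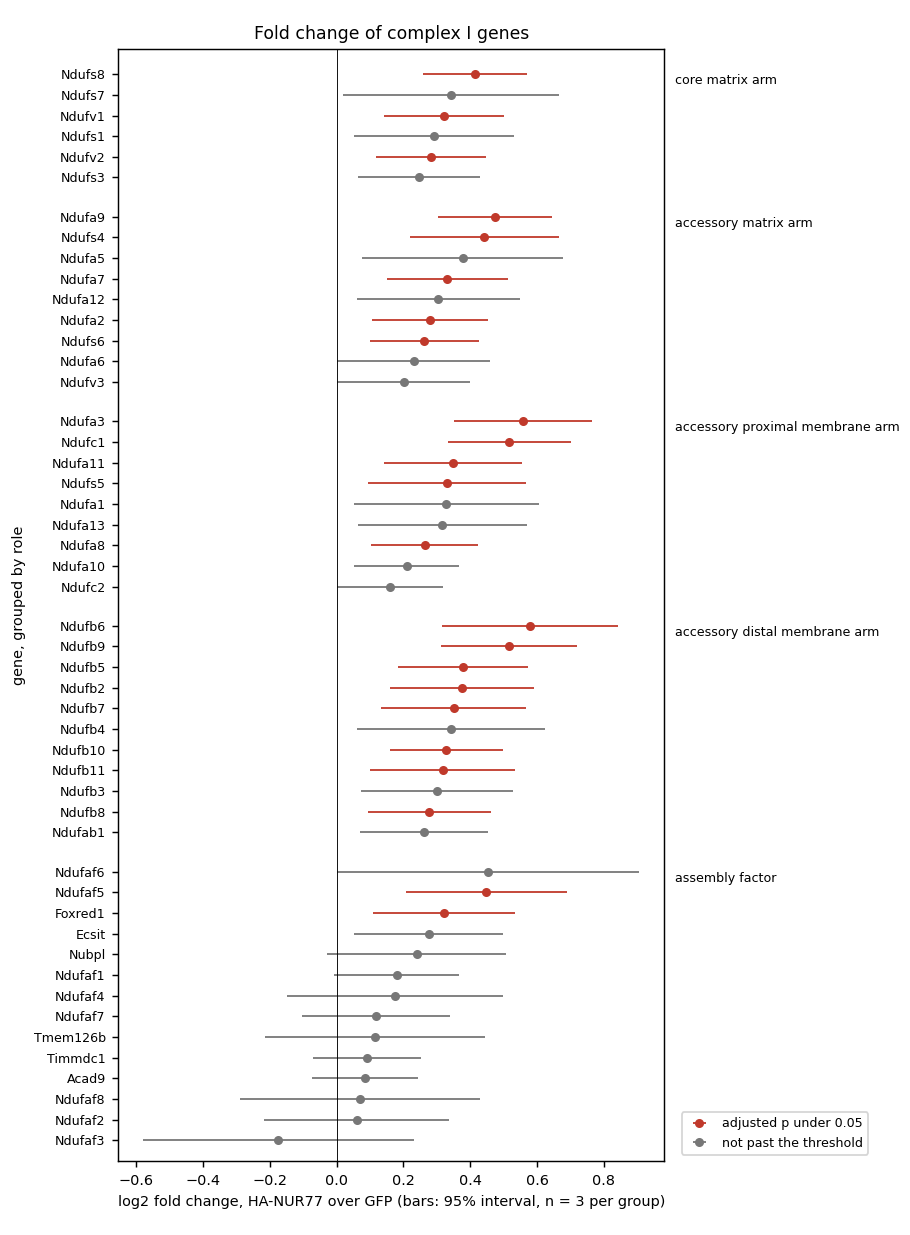
Fitted log2 fold change of each of the 49 genes (x axis, HA-NUR77 over GFP, with 95% intervals, 3 libraries per group), grouped by role on the y axis; red points have an edgeR adjusted p under 0.05. The 35 subunits all lie above 0, from 0.16 to 0.58, and the 14 assembly factors reach from −0.17 to 0.45.

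Levels also moved with the replicate number. The median level of the 49 genes, on the log2 scale relative to the mean of the GFP libraries, was 0.25, 0.25 and 0.41 in HA-NUR77 libraries 1, 2 and 3. In the same order it was −0.06, −0.05 and 0.11 in the GFP libraries. Replicate 3 was the highest HA-NUR77 library for 44 of the 49 genes and the highest GFP library for 41 of them. Compared within a replicate number, 48, 46 and 47 of the 49 genes were higher in HA-NUR77, with median log2 differences of 0.32, 0.31 and 0.29. Blocking on the replicate number called 37 of the 49 higher and 0 lower, beside 23.5% and 24.6% of all genes tested. The 23 genes called without the block were all among the 37. The summed level of the differentiated muscle markers was also highest in replicate 3 of both groups, and its part in the result was not tested.

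**Figure D2:**
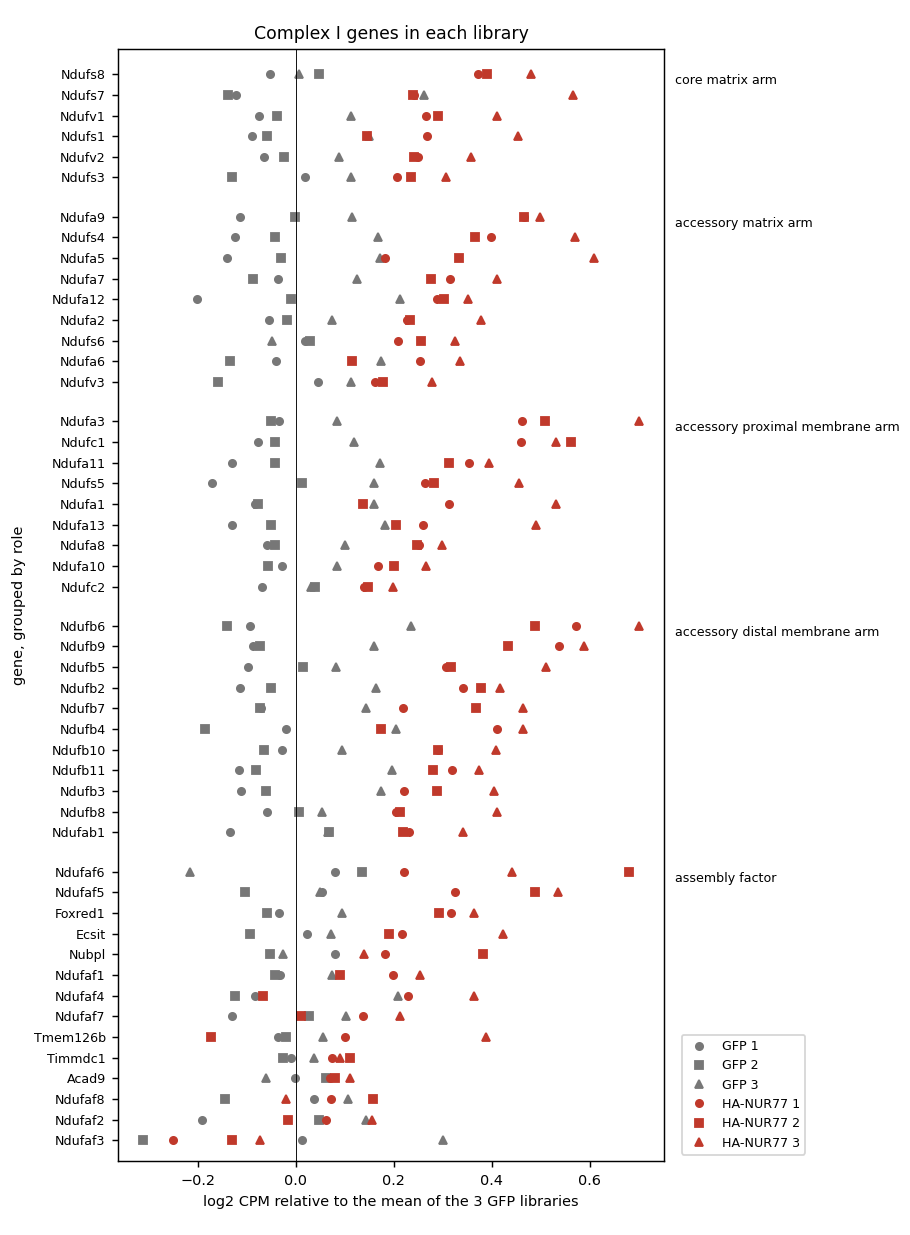
Level of each gene in each of the 6 libraries, as log2 CPM relative to the mean of the 3 GFP libraries (x axis), grouped by role (y axis); grey marks are GFP, red marks HA-NUR77, and circles, squares and triangles are replicates 1, 2 and 3. In 38 of the 49 genes all red marks lie right of all grey marks, and the triangles of both groups tend to lie right of the circles and squares.

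The count of 23 depended on single libraries. Leaving out HA-NUR77 replicate 1 gave 10 (5.33% of all genes tested were then higher), leaving out replicate 2 gave 19 (9.96%) and leaving out replicate 3 gave 9 (8.21%). Leaving out the GFP replicates in the same order gave 5 (5.09%), 7 (7.27%) and 31 (11.7%). Only Ndufa3, Ndufa9, Ndufb9, Ndufc1 and Ndufs8 were called with all libraries and in each of the 6 fits that left out 1 library. Exon length also moved with the fold change. Over all genes tested the median log2 fold change went from 0.25 for genes with at most 1000 bases of annotated exon to −0.08 above 5000 bases, and of the 882 genes with at most 1500 bases 23.4% were higher and 4.88% lower. The median exon length was 1801 bases for the complex I genes and 4493 bases for all genes tested. With an offset for length and GC content 13 of the 49 were higher, beside 12.8% of all genes tested, 0 were lower, and the median log2 fold change was 0.20. With the offset and the block together 27 were higher and 0 lower, beside 25.2% and 22.2% of all genes tested. Of the 13 called with the offset alone, 11 were among the 23, and none was an assembly factor. The median log2 fold change with the offset was 0.20 for the subunits, down from 0.33, and 0.17 for the assembly factors, where it was 0.15 without, so most of the gap between their medians was gone.

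**Figure D3:**
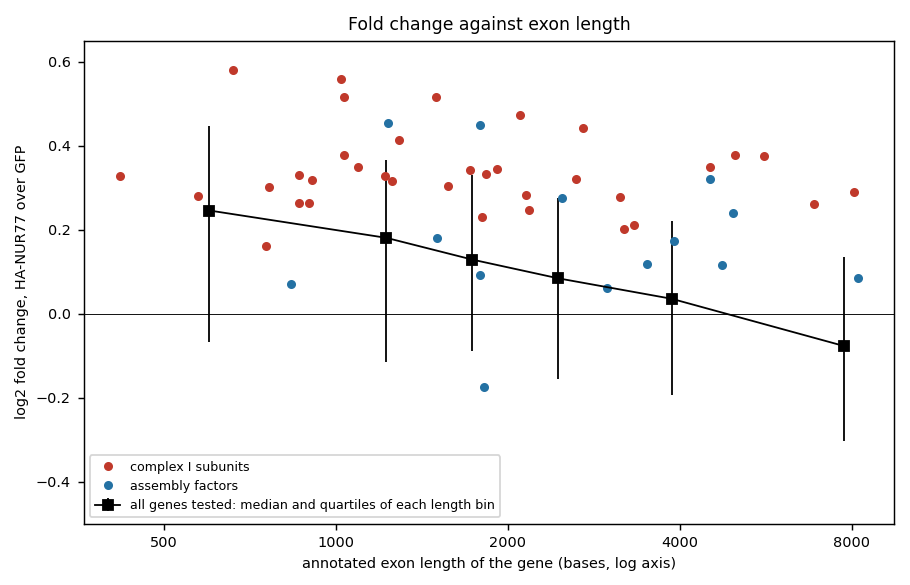
Log2 fold change (y axis, HA-NUR77 over GFP) against annotated exon length in bases (x axis, log scale) for the 35 subunits (red) and 14 assembly factors (blue); black squares and bars are the median and quartiles of all genes tested in 6 length bins. The bin medians fall from 0.25 to −0.08, and the median of the complex I genes is above the median of all genes in each of the 6 bins.

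Promoter sequences were examined because YY1 and NUR77 are named in the series title and because the members moved together. RefSeq promoter windows on GRCm38.p6, from 250 bases before to 50 bases after the annotated start, were matched by symbol for 44 of the 49 genes, and 5 letter patterns were searched on both strands. The letters of a YY1 site, AANATGGC, were in the windows of 15 of the 44 genes (34.1%), against 10.3% of 9658 tested genes with a window and 6.96% of all 27025 genes with one. The 44 genes had 46 windows, and a gene was counted if any of its windows held the letters. The YY1 letters were found for 11 of the 21 genes that rose and 4 of the 23 that did not pass. The ETS letters CCGGAAG were found for 8 genes (18.2%, against 20.4% of tested genes). The letters of the NRF1 palindrome, marked in the Ndufaf5 window below, were found for 3 (6.82%, against 2.38%). The NR4A monomer letters AAAGGTCA and the ERR letters TCAAGGTCA, which share AAGGTCA, were found for 0 of the 44 genes. They were found for 1.11% and 0.311% of tested genes. A match is only a run of letters, and binding was not measured in these samples.

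In 9 of the 15 genes the YY1 letters began 11 to 39 bases after the annotated start and read on the gene's own strand. Such a match in the first 50 bases was present in 20.5% of the 44 genes and in 3.80% of tested genes. The letters hold ATG, and whether these matches lie at the start codon of the protein was not tested. Such a match was present in 6 of the 21 genes that rose. The stretches below give the match in capitals with up to 10 bases on either side, 5′ to 3′ on the gene's strand. They are shown because they make the shared letters visible, and the 6 genes of the first set rose:
Ndufc1 (chr3:51408916-51408943, minus strand): cctgcggaacAAGATGGCgccgtccgta
Ndufa9 (chr6:126849098-126849125, minus strand): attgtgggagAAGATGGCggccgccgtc
Ndufa3 (chr7:3617385-3617412, plus strand): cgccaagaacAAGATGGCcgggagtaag
Ndufs4 (chr13:114388045-114388069, minus strand): tgcctacaggAAGATGGCggcggtc
Ndufs6 (chr13:73328433-73328459, minus strand): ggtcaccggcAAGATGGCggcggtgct
Ndufb8 (chr19:44555393-44555414, minus strand): ggagaaggtgAAGATGGCtgcc
The other 3 genes with the letters just after the start did not pass the test:
Ndufs7 (chr10:80249463-80249490, plus strand): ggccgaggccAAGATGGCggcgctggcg
Tmem126b (chr7:90475961-90475988, minus strand): gtgaggcgctAAGATGGCggcgtcccag
Ndufaf8 (chr11:120098934-120098961, plus strand): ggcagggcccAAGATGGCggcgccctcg
All 9 hold AAGATGGC. Of these last 3 genes, Ndufs7 was higher with the replicate block (edgeR adjusted p = 0.000619), and Tmem126b and Ndufaf8 did not pass with it (0.402 and 0.733). Whether the letters go with the change was not tested. In the other 6 genes the letters lay before the RefSeq start of the window that holds them. Of these, Ndufs8, Ndufb10, Ndufb5, Ndufa7 and Ndufb11 rose and Ndufaf3 did not pass. Ndufa7 also has another window, with an earlier start and no match. In Ndufa7 and Ndufb5 the match nearest the RefSeq start does not lie before the GENCODE gene start.

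For each pattern found, the window of the gene with the smallest adjusted p among those described below is shown whole, with that pattern in capitals. These are a membrane-arm subunit (YY1 letters), a core subunit (ETS letters) and an assembly factor (NRF1 letters), all of which rose:
Ndufc1 (chr3:51408906-51409205, minus strand): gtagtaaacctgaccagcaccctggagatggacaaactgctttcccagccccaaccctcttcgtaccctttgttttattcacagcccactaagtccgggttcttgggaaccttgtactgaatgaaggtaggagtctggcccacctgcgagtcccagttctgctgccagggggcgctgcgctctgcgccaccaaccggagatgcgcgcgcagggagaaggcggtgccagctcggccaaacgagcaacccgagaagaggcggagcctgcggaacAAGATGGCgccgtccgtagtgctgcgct
Ndufs8 (chr19:3912725-3913024, minus strand): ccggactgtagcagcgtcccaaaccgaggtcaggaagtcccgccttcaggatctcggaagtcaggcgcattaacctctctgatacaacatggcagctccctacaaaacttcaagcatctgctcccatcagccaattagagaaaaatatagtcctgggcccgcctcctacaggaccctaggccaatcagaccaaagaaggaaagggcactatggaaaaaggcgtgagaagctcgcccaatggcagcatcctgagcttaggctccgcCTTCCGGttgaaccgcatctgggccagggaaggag
Ndufaf5 (chr2:140170396-140170695, plus strand): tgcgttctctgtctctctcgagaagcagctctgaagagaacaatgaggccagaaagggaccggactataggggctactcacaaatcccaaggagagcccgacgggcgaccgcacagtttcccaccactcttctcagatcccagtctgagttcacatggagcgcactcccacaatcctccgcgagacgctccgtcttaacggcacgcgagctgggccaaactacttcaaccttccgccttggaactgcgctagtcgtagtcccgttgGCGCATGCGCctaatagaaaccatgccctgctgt
The match in Ndufs8 is the ETS pattern read on the opposite strand, and that window also holds the YY1 letters listed above.

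Between them, though not each of them, the core subunits of the matrix arm carry the flavin and iron-sulfur clusters that move electrons from NADH to ubiquinone. Of 6 listed, 3 rose and 3 did not pass, with a median change of 1.24-fold. Ndufs8, an iron-sulfur subunit close to the ubiquinone site (GRCm38 chromosome 19, 3908863 to 3912774, minus strand), stood at 60.1, 60.9 and 64.8 CPM in HA-NUR77 libraries 1, 2 and 3 and at 44.8, 48.0 and 46.7 CPM in the GFP libraries, an order kept for the genes that follow. The groups did not overlap, and the spread within each was small. The change was 1.33-fold (95% interval 1.2 to 1.48, edgeR adjusted p = 0.0054), and Ndufs8 was called in every fit without 1 library and with the length and GC offset. Ndufv1, which binds NADH and the flavin, stood at 156, 159 and 173 CPM against 123, 127 and 140.5 CPM. Every HA-NUR77 library was above every GFP library, by a narrower gap than in Ndufs8 relative to the spread. Its change was 1.25-fold (adjusted p = 0.0221). Ndufv2, its iron-sulfur partner, stood at 116, 115 and 125 CPM against 93.3, 96 and 104 CPM, again without overlap (1.22-fold, edgeR adjusted p = 0.0248).

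The other 3 core subunits had changes of like size that did not pass. Ndufs3 stood at 74.1, 75.7 and 79.5 CPM in HA-NUR77 and 65.1, 58.7 and 69.4 CPM in GFP, without overlap (log2 fold change 0.25, SE 0.08, edgeR adjusted p = 0.0553). Ndufs7, which carries the last cluster before ubiquinone, stood at 48.0, 48.0 and 60.2 CPM against 37.3, 36.9 and 48.7 CPM. GFP replicate 3 lay above HA-NUR77 replicates 1 and 2, so the groups overlapped, while each HA-NUR77 library was above the GFP library of its own number. Its log2 fold change was 0.34 (SE 0.14, adjusted p = 0.106, and 0.000619 with the replicate block). Ndufs1, the large iron-sulfur subunit, stood 1.22-fold higher in HA-NUR77 (edgeR adjusted p = 0.0738, not past the threshold) and was past the threshold with the block (adjusted p = 0.00105) and with the length and GC offset (adjusted p = 0.0315).

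The accessory subunits of the matrix arm surround this core and stabilise it. Of 9, 5 rose and 4 did not pass, with a median change of 1.24-fold, and all 9 were higher with the replicate block. Ndufa9, at the junction of the matrix and membrane arms (chromosome 6, 126821721 to 126849136, minus strand), stood at 115, 115 and 117 CPM in HA-NUR77 and 76.8, 83.0 and 89.9 CPM in GFP. The HA-NUR77 libraries were nearly level, and all were well above the highest GFP library. The change was 1.39-fold (95% interval 1.23 to 1.56, edgeR adjusted p = 0.00473; 0.00975 with the length and GC offset). Ndufs4, whose loss causes a severe complex I deficiency, stood at 91.7, 89.7 and 103 CPM against 63.8, 67.5 and 78.1 CPM. Replicate 3 was the highest library of each group, and the groups did not overlap. The change was 1.36-fold (edgeR adjusted p = 0.0159). Ndufa7, another matrix-arm subunit, stood at 92.5, 90.04 and 98.8 CPM against 72.4, 69.97 and 81.0 CPM (1.26-fold, edgeR adjusted p = 0.0207).

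Ndufa2, a small matrix-arm subunit, was higher in all 3 HA-NUR77 libraries, at 49.3, 49.5 and 54.7 CPM against 40.5, 41.5 and 44.2 CPM. Its exons span 572 bases, and its rise of 1.21-fold (edgeR adjusted p = 0.0306) was gone with the length and GC offset (log2 fold change −0.01, adjusted p = 0.936). Ndufs6, a zinc-binding subunit, rose 1.2-fold (edgeR adjusted p = 0.0312) and also stood at a log2 fold change of 0.00 with that offset (adjusted p = 0.997). Ndufa6, which docks an acyl carrier protein, stood at 95.7, 86.8 and 101 CPM against 78.1, 73.1 and 90.5 CPM. GFP replicate 3 was above HA-NUR77 replicate 2, and the log2 fold change of 0.23 did not pass (SE 0.10, edgeR adjusted p = 0.121; 0.00469 with the block). Ndufa5 (log2 fold change 0.38), Ndufa12 (0.30) and Ndufv3 (0.20) did not pass either, with edgeR adjusted p of 0.0671, 0.0684 and 0.121, and did so with the block (0.000584, 0.00424 and 0.0182).

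The accessory subunits of the proximal membrane arm lie next to the matrix arm. Of 9, 5 rose and 4 did not pass, with a median of 1.26-fold. Ndufc1, a small membrane subunit (chromosome 3, 51404677 to 51408988, minus strand), had the smallest adjusted p of the 49 genes. It stood at 40.4, 43.3 and 42.4 CPM in HA-NUR77 and 27.8, 28.5 and 31.9 CPM in GFP. The gap between the groups was larger than the spread within either, and replicate 3 was not the highest HA-NUR77 library here. The change was 1.43-fold (95% interval 1.26 to 1.63, edgeR adjusted p = 0.00442). Ndufa3, also a small membrane subunit, stood at 35.9, 37.2 and 42.4 CPM against 25.5, 25.2 and 27.7 CPM. Its change was 1.47-fold (95% interval 1.27 to 1.70, adjusted p = 0.00526). Both were past the threshold in every fit without 1 library and with the length and GC offset.

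Ndufa11, a multi-pass membrane subunit, stood at 60.5, 58.8 and 62.2 CPM against 43.2, 45.9 and 53.3 CPM (1.27-fold, edgeR adjusted p = 0.0262). Ndufa8, which faces the intermembrane space, stood at 76.0, 75.8 and 78.6 CPM against 61.3, 62.0 and 68.5 CPM (1.2-fold, edgeR adjusted p = 0.0285). In both genes the groups did not overlap, and GFP replicate 3 was the highest control. With the length and GC offset their adjusted p was 0.0989 and 0.787. Ndufs5 rose 1.26-fold (edgeR adjusted p = 0.0485). Ndufc2, the partner of Ndufc1 in the membrane arm, had a smaller difference, at 39.0, 39.3 and 40.6 CPM against 33.8, 36.4 and 36.2 CPM. The groups did not overlap, but the log2 fold change of 0.16 did not pass (SE 0.07, edgeR adjusted p = 0.118; 0.0596 with the block), and with the length and GC offset it was −0.12. Ndufc2 was the only one of the 35 subunits not past the threshold with the block. Ndufa1 (log2 fold change 0.33), Ndufa13 (0.32), also known as GRIM-19, and Ndufa10 (0.21) did not pass without the block, with edgeR adjusted p of 0.0792, 0.0677 and 0.0561, and passed with it (0.00235, 0.000502 and 0.00586).

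The distal membrane arm holds the NDUFB subunits and the acyl carrier protein Ndufab1. Of 11, 8 rose and 3 did not pass, a median of 1.27-fold, and all 11 were higher with the block. Ndufb9 (chromosome 15, 58933756 to 58939488, plus strand), an LYR-motif subunit that binds the acyl carrier protein, stood at 172, 160.3 and 178.5 CPM in HA-NUR77 and 112, 113 and 133 CPM in GFP. No library of one group reached the range of the other. The change was 1.43-fold (95% interval 1.24 to 1.65, edgeR adjusted p = 0.0064). Ndufb6, a single-pass membrane subunit, had the largest fold change of the 49 genes. It stood at 50.8, 48.0 and 55.6 CPM against 32.0, 31.0 and 40.2 CPM, a change of 1.49-fold (95% interval 1.24 to 1.79, edgeR adjusted p = 0.0111). GFP replicate 3 was well above the other controls, and the adjusted p was 0.0508 in the weakest of the 6 fits without 1 library and 0.0639 with the length and GC offset.

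Ndufb10, on the intermembrane-space side of the arm, stood at 76.8, 76.8 and 83.4 CPM against 61.6, 60.01 and 67.0 CPM (1.26-fold, edgeR adjusted p = 0.0166). Ndufb5 stood at 74.9, 75.5 and 86.3 CPM against 56.6, 61.2 and 64.2 CPM (1.30-fold, edgeR adjusted p = 0.0167). Neither gene's groups overlapped. Ndufb2, Ndufb7, Ndufb8 and Ndufb11 rose 1.30-fold, 1.27-fold, 1.21-fold and 1.25-fold, with edgeR adjusted p from 0.0236 to 0.042. With the length and GC offset, Ndufb2 and Ndufb7 stayed past the threshold (adjusted p = 0.0186 and 0.0368) and Ndufb8 and Ndufb11 did not (0.0889 and 0.571). Ndufb4 stood at 41.7, 35.4 and 43.3 CPM against 31.0, 27.6 and 36.2 CPM. GFP replicate 3 was above HA-NUR77 replicate 2, and the log2 fold change of 0.34 did not pass (SE 0.12, edgeR adjusted p = 0.0723; 0.00127 with the block). Ndufb3 (log2 fold change 0.30) and Ndufab1 (0.26) did not pass (adjusted p = 0.0574 and 0.0518) but did with the block (0.00302 and 0.00697).

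The assembly factors are not part of the finished enzyme, and their transcripts were scarcer. Per kilobase of the longest annotated transcript, the median level in GFP was 5.58 CPM for the 14 factors and 51.9 CPM for the 35 subunits. Of the 14, 2 rose (14.3%, beside 12.4% of all genes tested) and 12 did not pass. With the block 3 rose, beside 23.5% of all genes tested. Both counts were near the share of all genes. Their median SE was 0.11 on the log2 scale, against 0.09 for the subunits. Ndufaf5, an enzyme that hydroxylates an arginine of Ndufs7 (chromosome 2, 140170649 to 140203689, plus strand), stood at 13.0, 14.6 and 15.1 CPM in HA-NUR77 and 10.8, 9.68 and 10.8 CPM in GFP. All HA-NUR77 libraries were above all controls. The change was 1.36-fold (95% interval 1.15 to 1.61, edgeR adjusted p = 0.0194). Foxred1, a flavoprotein needed for assembly, stood at 14.5, 14.3 and 15 CPM against 11.4, 11.2 and 12.4 CPM (1.25-fold, edgeR adjusted p = 0.0372). With the length and GC offset the adjusted p was 0.0522 for Ndufaf5 and 0.0643 for Foxred1.

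Ecsit, Acad9, Ndufaf1 and Tmem126b work together in the assembly of the membrane arm, and none of them passed. Ecsit stood at 21.0, 20.6 and 24.3 CPM in HA-NUR77 and 18.4, 17.0 and 19.0 CPM in GFP, without overlap (log2 fold change 0.28, SE 0.10, edgeR adjusted p = 0.0698; 0.0125 with the block). Ndufaf1 had a log2 fold change of 0.18 (edgeR adjusted p = 0.137), Acad9 of 0.09 (0.378) and Tmem126b of 0.12 (0.572). The interval for Acad9, the most abundant factor in CPM, ran from 0.951-fold to 1.18-fold. Tmem126b lay at 17.2, 14.2 and 21.0 CPM against 15.6, 15.8 and 16.6 CPM, so HA-NUR77 held both the lowest and the highest library. Timmdc1, a membrane-arm factor, had a log2 fold change of 0.09 (edgeR adjusted p = 0.357).

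The remaining factors are those of the ubiquinone module and of late or cluster assembly. Their mean GFP levels ran from 2.8 CPM (Ndufaf6) to 21.7 CPM (Ndufaf7), and their SEs from 0.10 (Ndufaf7) to 0.19 (Ndufaf6). Ndufaf6, an early factor, had 62, 101 and 52 reads in HA-NUR77 and 49, 44 and 35 in GFP, or 3.21, 4.41 and 3.73 CPM against 2.91, 3.02 and 2.37 CPM. The groups did not overlap, but its log2 fold change of 0.45 carried an SE of 0.19 and did not pass (edgeR adjusted p = 0.122). Ndufaf8, which acts with Ndufaf5, stood at 3.83, 4.06 and 3.59 CPM against 3.74, 3.30 and 3.92 CPM. The groups overlapped, with a change of 1.05-fold (95% interval 0.818 to 1.35, edgeR adjusted p = 0.759). Ndufaf3 was the one gene with a lower mean, at 5.58, 6.07 and 6.32 CPM against 6.70, 5.36 and 8.19 CPM (log2 fold change −0.17, SE 0.17, edgeR adjusted p = 0.484). Ndufaf4, its partner, had a log2 fold change of 0.17 (adjusted p = 0.379), Ndufaf7, a methyltransferase, of 0.12 (0.382), Ndufaf2, which binds late intermediates, of 0.06 (0.729) and the iron-sulfur factor Nubpl of 0.24 (0.161). The interval of Ndufaf8, up to 1.35-fold, takes in the subunits' median of 1.26-fold. Those of Acad9, Timmdc1 and Ndufaf3 end below that median, at 1.18-fold, 1.19-fold and 1.17-fold. The intervals of all other factors take it in.

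None of the mtDNA-encoded subunits, which form the proton pumps, was called higher. Of 7 listed, 6 were in the tables and tested, and 0 rose and 0 fell (edgeR, 0 at an unadjusted p under 0.05; limma-voom 0, DESeq2 1 lower). mt-Nd1 stood at 4065 ± 176 CPM in HA-NUR77 and 4050 ± 86.7 CPM in GFP (SD, n = 3; edgeR adjusted p = 0.971), mt-Nd2 at 3996 ± 134 and 3878 ± 348 CPM (0.779), mt-Nd4 at 2433 ± 274.7 and 2551 ± 391.5 CPM (0.738) and mt-Nd6 at 141 ± 20.2 and 145 ± 5.91 CPM (0.77). mt-Nd5 stood at 3703 ± 170.1 and 4333 ± 296 CPM (log2 fold change −0.23, SE 0.10, adjusted p = 0.13), without overlap between the groups, and it was lower with the block (adjusted p = 0.0117) and by DESeq2 (0.0238). mt-Nd3 had only 19 to 30 reads per library and is uncertain. Summed over the 35 nuclear subunits, the level was 2662, 2626 and 2922 CPM in HA-NUR77 and 2054, 2088 and 2369 CPM in GFP. The ratio of this sum to the separate sum of the mtDNA-encoded subunits was 18.2%, 19.5% and 19.6% in HA-NUR77 and 14.3%, 14.6% and 14.6% in GFP, with no overlap. The ratio was not tested, nor was how poly(A) selection captures mitochondrial transcripts.

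**Figure D4:**
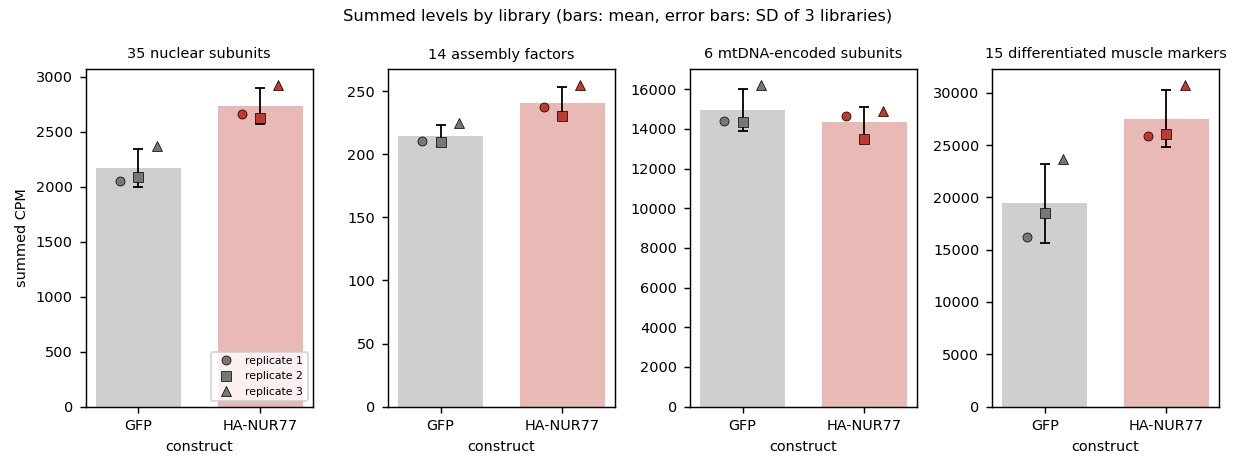
Summed CPM (y axes, each from 0) of the 35 nuclear subunits, 14 assembly factors, 6 mtDNA-encoded subunits and 15 differentiated muscle markers in the GFP and HA-NUR77 libraries (x axes); bars are means, error bars SDs of 3 libraries, and circles, squares and triangles are replicates 1, 2 and 3. The nuclear subunits reach 2626 to 2922 CPM against 2054 to 2369 CPM, while the mtDNA-encoded subunits overlap between the groups.

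Other genes tied to complex I, were listed beside the 49. Of 10 listed, 8 were in the tables and 7 were tested, of which 3 rose and 0 fell, beside the 12.4% of all genes. With the block 4 rose, Tmem186 being the added gene, beside 23.5% of all genes tested. With the length and GC offset 1 of the 7 rose, beside 12.8% of all genes tested. Tmem126a, a membrane-arm assembly factor, rose 1.29-fold (edgeR adjusted p = 0.0223), Dmac1, a distal-arm factor, 1.29-fold (adjusted p = 0.0336) and Ndufa4, once counted with complex I and now with cytochrome c oxidase, 1.29-fold (adjusted p = 0.0248). In the adjoining complexes, 9 of 10 genes of complex III and cytochrome c rose, with a median of 1.32-fold, and 7 of 10 cytochrome c oxidase subunits, with a median of 1.27-fold. With the block 10 and 9 of them rose, beside 23.5% of all genes tested. With the length and GC offset 6 and 3 rose, beside 12.8% of all genes tested. The median log2 fold changes then went from 0.40 to 0.30 and from 0.34 to 0.15. The complex I subunits, at 21 of 35 and 1.26-fold, lay beside these values, and whether the lists differ was not tested.

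The 49 genes are spread over 18 chromosomes, with at most 6 on any one. Across the 49, fold change had a Spearman correlation of −0.24 with exon length, 0.05 with GC content and 0.22 with the GFP level, as a description over genes that share the same 6 libraries. The SD of the 49 log2 fold changes was 0.14, against a median SE of 0.09, and 0.58 over all genes tested. Some counts may be shared with other genes. In the annotation 14 of the 49 have a stretch of at least 95% identity over 200 bases in another gene. That gene can be one that overlaps the member, so this count partly repeats the overlaps. The exons of a gene on the same strand are overlapped by 4 members, and those of a gene on the opposite strand by 16. Their values are uncertain to that extent. Ndufa3, Ndufa9, Ndufb5 and Ndufb6 overlap a gene on the opposite strand, and the sources used here do not give the strand setting of the counting. The near-identical stretches of Ndufb5 and Ndufb6 are in the same genes that overlap them, Mrpl47 and Smim27. That of Ndufb9 is in Gm49356, which overlaps it on its own strand. Of the 26 with none of these, which include Ndufc1, Ndufs8, Ndufs4 and Ndufv1, 11 rose.

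**Figure D5:**
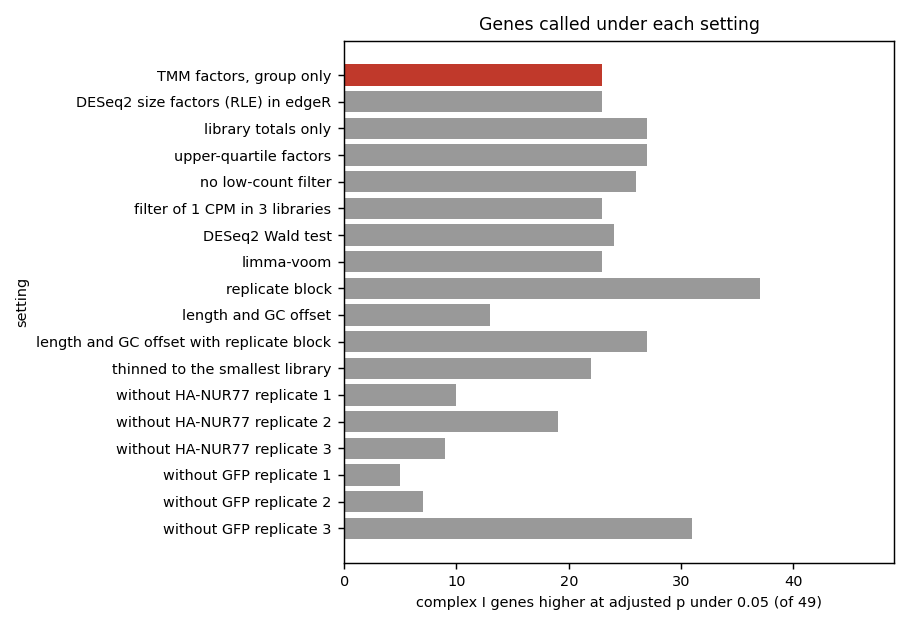
Number of the 49 genes higher in HA-NUR77 at an adjusted p under 0.05 (x axis, from 0) under each setting (y axis); the red bar is the fit reported here, with 23 genes. The count runs from 5 without GFP replicate 1 to 37 with the replicate block, and is 13 with the length and GC offset.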

How the data were processed

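The files are tables of read counts per Ensembl gene, 1 per library, as deposited by the authors, without normalisation. TopHat2 2.1, HTSeq, DESeq2 and the build mm10 are named per the submitters' processing notes; annotation release and strand setting are not given in the sources used here. Symbols, coordinates and exon lengths came from GENCODE M21 on GRCm38, the assembly of mm10, for 22888 of 23154 IDs, and promoter sequences from RefSeq (GRCm38.p6). Totals of 13906096 to 22821446 counts set the precision.

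Counts were tested with edgeR 4.0.16 (R 4.3.3; quasi-likelihood, robust, TMM factors, group only) on 12509 genes kept by filterByExpr with a minimum count of 10. P-values were adjusted by Benjamini-Hochberg over these genes, with a threshold of 0.05. CPM are counts scaled to TMM-adjusted library size, with library size taken over the genes tested. Fold changes are the fitted ones, with SE from the F statistic and intervals at 95%. The fits were also run on simulated counts, whose changes were larger than the median change of the complex I genes. Recovery of changes as small as that median was not examined. Alternatives were other scalings and filters, DESeq2 1.42.0, limma-voom (limma 3.58.1), thinned counts, leaving out each library, the replicate block, and an offset from a smooth on exon length and GC content of the longest transcript (mgcv 1.9.3). Near-identical stretches in other genes, overlapping genes included, were sought with blastn 2.17.0.

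The labels give both groups the numbers 1 to 3 without saying what a number marks. Deviations from the group means correlated across genes at 0.25, 0.55 and 0.47 for same-numbered libraries, all above 0.1, the limit used to accept a pairing. It therefore rests on the data, not the labels, and blocked values or counts are given beside the results they change. No pair of libraries of a group agreed within sampling noise (smallest chi-square per degree of freedom 11.4).

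The genes, lists and naming rule were chosen with earlier results of these data known. In each role group the 4 genes with the smallest adjusted p and the one with the largest p are given in every library, as would be any gene that fell or rose by a log2 of at least 0.6 in size. Tmem126b and Ndufaf3 were added after their values were seen. One further complex I gene is not reported here.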

Additional observations from a re-analysis of the deposited data

How the results depend on the processing

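Library scaling, low-count filters, DESeq2, limma-voom and thinned counts left 22 to 27 of the 49 complex I genes higher and 0 lower. The count was 37 with the replicate block and 13 with the length and GC offset, and 5 to 31 when 1 library was left out. The median log2 fold change was 0.20 with the offset and 0.20 with offset and block, and 0.25 to 0.36 when 1 library was left out. The number of all genes called higher was 2942 with the block and 3151 with offset and block, and that of all genes called lower 3071 and 2775. Leaving out 1 library gave 642 to 1489 and 850 to 1572. Of the mtDNA-encoded subunits 1 was lower with DESeq2, with the block, and with offset and block, in each case mt-Nd5, and 0 otherwise. The offset turned the sign of 6 genes, without and with the block: Ndufa2 (−0.0089, −0.0096), Ndufc2 (−0.118, −0.118), Ndufs6 (−0.0005, −0.0023), Ndufaf2 (−0.0268, −0.0212), Ndufaf8 (−0.155, −0.153) and Timmdc1 (−0.0536, −0.0532). Leaving out 1 library, Ndufaf2 ran from −0.0308 (without GFP replicate 1) to 0.1288 (without GFP replicate 3) and Tmem126b from −0.0329 (without HA-NUR77 replicate 3) to 0.2486. None of these reversed values passed the threshold, and the cause was not tested. The block changed the call of 14 genes, all to higher, and of no gene from higher. Ndufaf6 and Ndufaf8 had 35 to 101 reads per library and SEs of 0.19 and 0.16; how far depth limits single calls was not tested.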
